A study of Mus musculus with 6 samples.

Results

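The 8 genes described here are 6 sodium-proton exchangers of the Slc9a family (Slc9a2, Slc9a3, Slc9a5, Slc9a7, Slc9a8 and Slc9a9) and 2 NHERF scaffolds (Slc9a3r1 and Slc9a3r2). They were chosen by symbol from the 32285 genes of the count files, and all 8 were present in all 6 libraries. The libraries are single-cell RNA sequencing (scRNA-seq) of mouse small intestinal organoids, 3D cultures of duodenal epithelium, collected on day 3. The 4 WT libraries are 2 from organoids without EIPA, labelled DMSO (-EIPA replicates 1 and 2), and 2 from organoids given 5 µM EIPA (+EIPA replicates 1 and 2). EIPA is an amiloride analog that blocks sodium-proton exchangers. Organoids carrying an inducible CRISPR-Cas9 construct gave 1 library without doxycycline (-Dox) and 1 with 2 µg/mL doxycycline (+Dox). That line was made by lentiviral infection of WT organoids, puromycin selection and the growth of single clones, and both its libraries carry the construct. All organoids go back to adult mice aged 10 weeks. Cells were sorted as live in 5 libraries, and as live and GFP-positive in +Dox.

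Sodium-proton exchangers move protons across a membrane in exchange for sodium. In the small intestine the products of Slc9a3 (NHE3) and Slc9a2 (NHE2) sit in the apical membrane of absorptive cells, where NHE3 takes up sodium from the lumen. NHERF1 (Slc9a3r1) and NHERF2 (Slc9a3r2) are PDZ-domain scaffolds that tie NHE3 and other transporters to ezrin and the actin of the brush border. Slc9a8 encodes an exchanger of the Golgi and the apical membrane, Slc9a7 and Slc9a9 encode exchangers of internal membranes, and Slc9a5 encodes a plasma membrane form best known from the brain.

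The promoters of Slc9a3 and of both scaffolds are shown because the levels of Slc9a3 and Slc9a3r1 were highest in enterocyte-like cells among the named classes, where the mean level of Slc9a3r2 was lowest. Each line gives the 250 bases before the RefSeq start (GRCm38.p6), 5′ to 3′ on the strand of the gene, at chr13:74121163-74121412 (plus strand), chr11:115163091-115163340 (plus) and chr17:24650306-24650555 (minus). Capitals mark GC boxes, searched as GGGCGG on both strands.
Slc9a3: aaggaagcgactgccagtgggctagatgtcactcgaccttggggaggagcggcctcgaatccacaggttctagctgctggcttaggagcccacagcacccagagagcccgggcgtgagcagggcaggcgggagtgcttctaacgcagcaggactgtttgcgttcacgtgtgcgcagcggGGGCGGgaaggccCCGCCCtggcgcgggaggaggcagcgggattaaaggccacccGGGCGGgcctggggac
Slc9a3r1: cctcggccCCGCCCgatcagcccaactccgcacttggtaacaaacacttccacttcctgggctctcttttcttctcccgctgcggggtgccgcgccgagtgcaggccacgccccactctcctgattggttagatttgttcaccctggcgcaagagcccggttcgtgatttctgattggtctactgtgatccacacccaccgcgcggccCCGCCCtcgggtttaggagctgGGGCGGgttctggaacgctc
Slc9a3r2: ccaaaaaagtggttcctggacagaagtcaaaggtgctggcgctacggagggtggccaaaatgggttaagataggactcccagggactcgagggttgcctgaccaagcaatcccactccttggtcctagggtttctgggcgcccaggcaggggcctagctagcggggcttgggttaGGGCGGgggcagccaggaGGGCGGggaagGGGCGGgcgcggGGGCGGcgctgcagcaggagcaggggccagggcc
The promoters held 3 GC boxes in Slc9a3, 3 in Slc9a3r1 and 4 in Slc9a3r2. The same letters were present in 32.7% of 32851 promoters of the table and in 6 of the 7 members it holds. Slc9a2 had no entry. A match describes the sequence and not a bound site.

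On GRCm38 Slc9a3 lies at chr13:74121457-74169442, Slc9a3r1 at chr11:115163341-115181181 and Slc9a2 at chr1:40680574-40769273, all on the plus strand, and Slc9a3r2 at chr17:24639286-24650327 on the minus strand. No other annotated gene overlapped the last 1000 bases of any member, the end that 3′ tags read. The counts are of unique molecular identifiers (UMIs), single RNA molecules tagged before amplification, and levels are given as CPM, the UMIs of a gene scaled to the total of all UMIs in the summed cells. After limits on cells, 12083 to 18211 cells were kept per library with 161670015 to 239368573 UMIs, and 33 to 78 cell barcodes were shared by any pair of libraries. Depth differed widely between members. Over the 6 libraries Slc9a3r1 gave 117098 UMIs, Slc9a8 15529, Slc9a2 10024 and Slc9a3 8096. Slc9a3r2 gave 1864, Slc9a5 1520, Slc9a9 120 and Slc9a7 33, so the last pair allowed little beyond presence.

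Cells were clustered without the members and the other pathway genes, and named from marker genes as enterocyte-like (1928 to 3480 cells per library), ISC-like (intestinal stem cell), proliferating, Goblet/Paneth-like, EEC-like (enteroendocrine) and tuft-like. Between 11.6% and 32.8% of the cells of a library stayed unnamed, and orders of classes are given among the named classes. Of 18 enterocyte markers, 18 had UMIs in the enterocyte-like cells of each library, but so they did in ISC-like cells. Their summed level was 33890 to 66228 CPM in enterocyte-like cells and 816 to 2998 CPM in ISC-like cells. The 6 markers of immune cells summed to at most 0.914 CPM and the 6 of mesenchymal or endothelial cells to at most 0.599 CPM over all cells of a library, so both were near 0. The defining M cell marker Gp2 had 0 UMIs, while the other 5 genes of the M cell list, which are not limited to M cells, were detected. Differences between classes are described without a test, since the classes were built from the same cells. The EEC-like class was not alike in the lines. Its 20 EEC markers summed to 38646 to 43522 CPM in the 4 WT libraries and to 4375 CPM in -Dox and 5352 CPM in +Dox, with 17 and 19 of the 20 detected, so EEC-like values of the CRISPR-Cas9 line are given as values of those clusters and not of comparable cells.

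Slc9a3 was the member most concentrated in enterocyte-like cells. Its level there was 19.99 and 10.6 CPM in the -EIPA libraries, 20.6 and 17.7 in +EIPA, 24.7 in -Dox and 41.6 in +Dox. In ISC-like cells it was 1.14 and 0.434 CPM in -EIPA, 0.763 and 0.692 in +EIPA, 1.02 in -Dox and 2.01 in +Dox. No library of any other named class reached the lowest enterocyte-like value, and the other named classes overlapped their neighbours in that order. The unnamed cells stood at 1.93 to 8.31 CPM in 5 libraries and at 12.2 in +Dox, within the enterocyte-like range. On a log2 scale the enterocyte-like level stood 4.49 ± 0.23 (SD, n = 6 libraries) above the ISC-like level, and the enterocyte-like cells held 71.2% of all Slc9a3 UMIs. The ISC-like level was 3.71% to 5.72% of the enterocyte-like one. The enterocyte marker list as a whole stood at 1.90% to 4.53%, below Slc9a3 in each library, for example at 2.24% against 5.72% in -EIPA replicate 1 and 4.53% against 4.84% in +Dox. How much of the ISC-like Slc9a3 signal was free RNA was not tested. A Slc9a3 UMI was seen in 23.3% of enterocyte-like cells and 1.39% of ISC-like cells on average, at median depths of 10568.5 to 16792 and 10398 to 16007.5 UMIs. With each cell thinned to 2000 UMIs the shares were 4.51% and 0.206%.

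**Figure D1:**
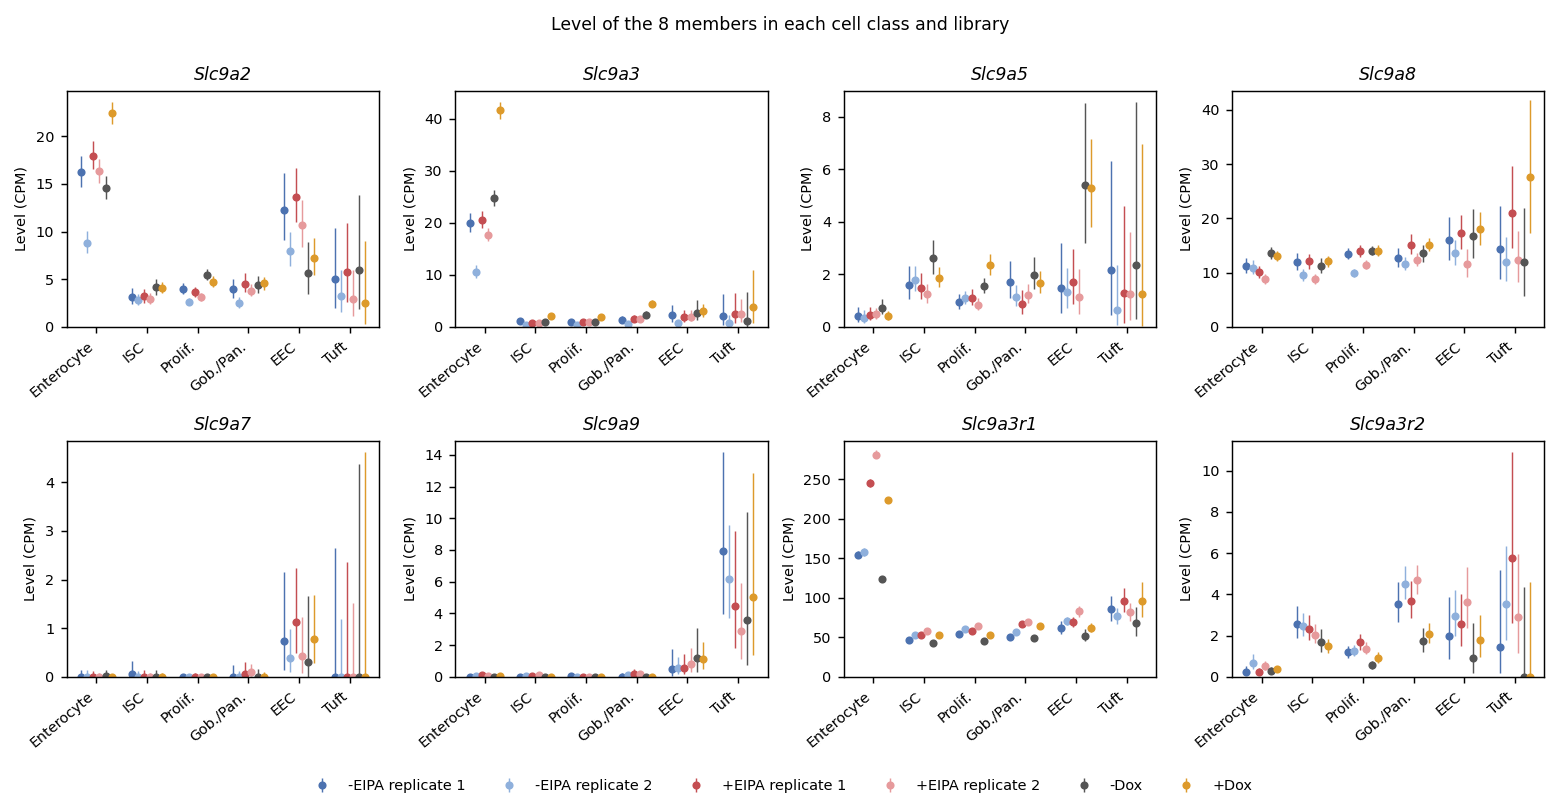
Level of the members by cell class and library, in CPM. Each panel has its own axis from 0, each point is 1 library, colours give the library, and bars are exact 95% Poisson intervals of the counts. Among these named classes Slc9a3 and Slc9a3r1 are highest in enterocyte-like cells in each library, while Slc9a5 and Slc9a3r2 are low there.

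Slc9a2 was also high in enterocyte-like cells, but less exclusively. It stood at 16.2 and 8.82 CPM in -EIPA, 18.0 and 16.3 in +EIPA, 14.6 in -Dox and 22.4 in +Dox, against 2.79 to 4.15 CPM in ISC-like cells. EEC-like cells came next, with 5.69 to 13.6 CPM, and their range overlapped that of enterocyte-like cells. The log2 difference between enterocyte-like and ISC-like cells was 2.204 ± 0.37 (SD, n = 6). The ISC-like level, 17.9% to 31.6% of the enterocyte-like one, lay well above the share of the enterocyte markers. Among single clusters, Slc9a2 peaked in cluster 10, an enterocyte-like cluster of low UMI counts led by Apoa4 and Apob, with a mean of 48.7 CPM. The unnamed cluster 14, led by Tm4sf4, Sprr1a, Clu, Anxa1 and Ly6a, followed with 34.9 CPM. In the 3 libraries without EIPA or Dox, Slc9a2 was 34.5, 22.0 and 32.5 CPM in cluster 10 and 38.6, 13.6 and 37.1 in cluster 14.

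The scaffolds differed most in enterocyte-like cells, where Slc9a3r1 was highest and the mean of Slc9a3r2 lowest of the named classes. Slc9a3r1 was the most counted member in each class, and among the named classes its level was highest in enterocyte-like cells, at 155 and 159 CPM in -EIPA, 246 and 282 in +EIPA, 124 in -Dox and 224 in +Dox. Tuft-like cells came next with 68.8 to 96.4 CPM, below the lowest enterocyte-like library, and ISC-like cells were lowest on average with 42.7 to 58.6 CPM. The unnamed cluster 14 lay above the enterocyte-like class in each library, at 398 and 172 CPM in -EIPA, 371 and 297 in +EIPA, 154 in -Dox and 328 in +Dox. The enterocyte-like level was above the ISC-like level by 1.91 ± 0.32 on the log2 scale (SD, n = 6). Slc9a3r1 was found in 78.7% of enterocyte-like and 45.1% of ISC-like cells, and in 32.3% and 9.32% after thinning. In tuft-like cells of -Dox and +Dox Slc9a3r2 had 0 UMIs. Slc9a3r2 had its lowest mean in enterocyte-like cells, with 0.217 to 0.691 CPM, and stood 2.49 ± 0.69 (SD, n = 6) below ISC-like cells on the log2 scale. Its highest mean was in Goblet/Paneth-like cells, at 3.53 and 4.51 CPM in -EIPA, 3.67 and 4.69 in +EIPA, 1.74 in -Dox and 2.08 in +Dox. Both CRISPR-Cas9 libraries were below the 4 WT libraries there, a difference between lines that was not tested. The Slc9a3r2 level of enterocyte-like cells was 9.32% to 27.9% of the ISC-like one, from 6 to 23 UMIs per library, while the ISC markers stood at 9.74% to 14.7%. Slc9a3r2 was below that marker share in the replicate 1 libraries and above it in the other 4, up to 27.9% against 14.7% in -EIPA replicate 2.

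Slc9a8 differed little between the named classes, with means from 10.9 CPM in ISC-like to 16.5 CPM in tuft-like cells and overlapping ranges between all neighbouring classes. Single clusters differed more. The unnamed cluster 11, of low UMI counts and led by mitochondrial genes, had 23.4 to 30.4 CPM, and within enterocyte-like cells cluster 10, also of low UMI counts, had 16.6 to 23.6 CPM against 7.27 to 11.4 in cluster 8. Its enterocyte-like and ISC-like levels differed by 0.03 ± 0.20 (SD, n = 6) on the log2 scale, less than the spread between libraries. Over all cells it was 12.9 and 10.5 CPM in -EIPA, 13.0 and 10.5 in +EIPA, 13.2 in -Dox and 13.8 in +Dox, and the second replicate was the lower one with and without EIPA. Slc9a5 was lowest in enterocyte-like cells, where each library, at 0.345 to 0.729 CPM, lay below the proliferating cells. In ISC-like cells it was 1.60 and 1.80 CPM in -EIPA, 1.49 and 1.24 in +EIPA, 2.60 in -Dox and 1.87 in +Dox. In EEC-like cells Slc9a5 stood at 1.47 and 1.33 CPM in -EIPA and 1.70 and 1.12 in +EIPA, but at 5.39 in -Dox (18 UMIs) and 5.27 in +Dox (41 UMIs). Both CRISPR-Cas9 libraries were high with and without Dox, and the EEC marker sum was lower in both, as given above. Cluster 20 also had fewer than 20 cells in either CRISPR-Cas9 library. In the pair of EEC-like clusters with cells of both lines, the CRISPR-Cas9 levels of Slc9a5 were 7.15 and 4.46 CPM in cluster 18 and 5.05 and 5.32 in cluster 13, against 1.34 to 2.52 and 0.646 to 1.46 in the WT libraries. These clusters hold parts of the 18 and 41 UMIs above. Cluster 18 had 86 cells in -Dox and 127 in +Dox, so its levels rest on few UMIs. The part of the EEC markers in this difference between lines was not tested. A difference between lines was also seen outside EEC-like cells. In cluster 0, of proliferating cells, Slc9a5 was 1.64 CPM in -Dox and 1.93 in +Dox, against 0.794 to 1.18 in the WT libraries. In +Dox that cluster held 225 cells, while the proliferating cluster 17 held 1586, at 2.39 CPM. In ISC-like cells both CRISPR-Cas9 libraries were above the WT libraries, as given above. In the enterocyte-like cluster 5 the lines overlapped, at 0.282 and 0.170 CPM against 0.127 to 0.284. The whole class had 29 Slc9a5 UMIs in -Dox and 26 in +Dox, so these levels rest on few UMIs.

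The exchangers of internal membranes were rare, and most of their UMIs came from tuft-like and EEC-like cells. Slc9a9 was highest in tuft-like cells, at 7.92 and 6.15 CPM in -EIPA, 4.47 and 2.88 in +EIPA, 3.56 in -Dox and 5.01 in +Dox, each from 3 to 19 UMIs. Tuft-like cells held 42.5% of the Slc9a9 UMIs and 0.798% of all UMIs. EEC-like cells followed without overlap at 0.490 to 1.20 CPM, and ISC-like cells had at most 0.0988 CPM. Of the 33 Slc9a7 UMIs, 75.8% came from EEC-like cells, at 0.299 to 1.14 CPM. With EIPA, Slc9a9 in tuft-like cells was lower in both experiments, at ratios of 0.564 and 0.469. Both +EIPA libraries lay below both -EIPA libraries. This difference rested on 7 to 19 UMIs per library and was not tested, and the share of all genes without overlap was not counted. In the 5 classes that were tested, neither gene passed the filter on low counts.

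**Figure D2:**
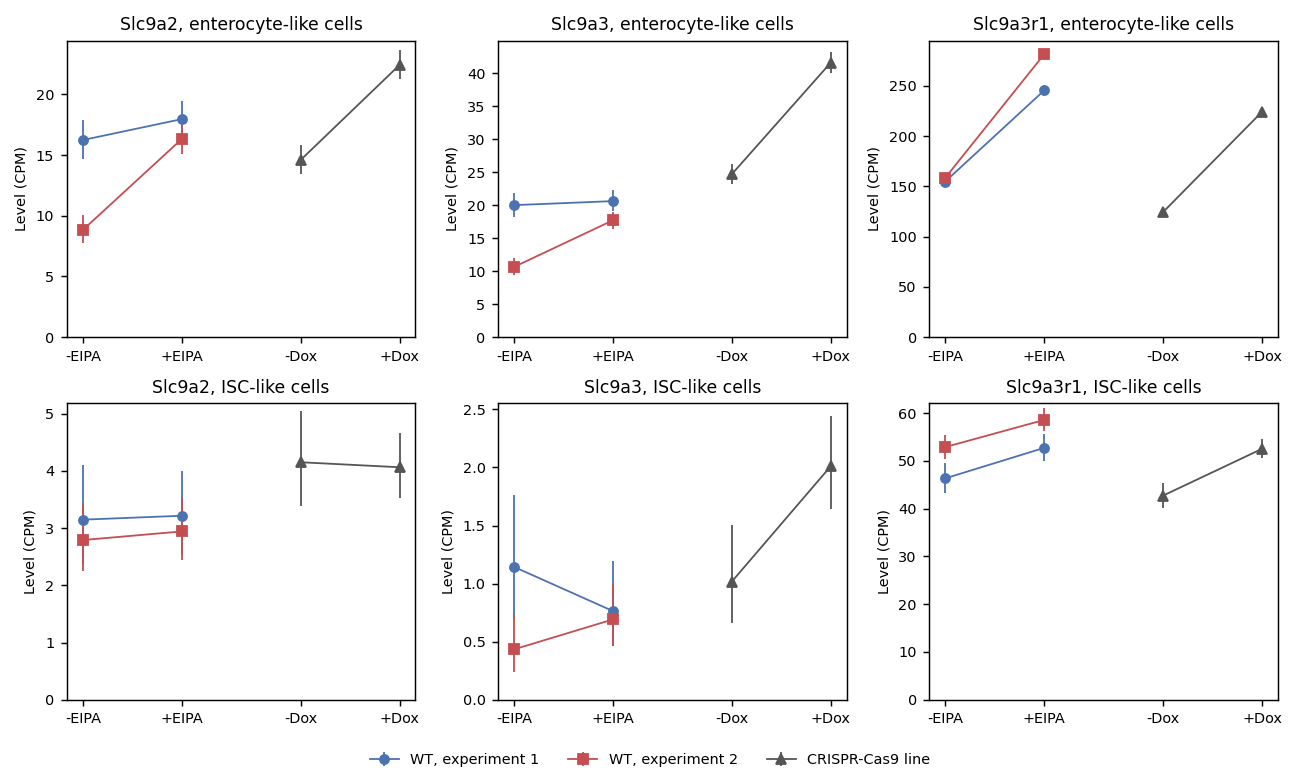
Level of Slc9a2, Slc9a3 and Slc9a3r1 in CPM in enterocyte-like (top) and ISC-like cells (bottom), with exact 95% Poisson intervals as bars and lines joining the libraries of 1 experiment or of the CRISPR-Cas9 line. Slc9a3r1 in enterocyte-like cells goes from 155 and 159 CPM to 246 and 282 with EIPA and from 124 to 224 CPM with Dox.

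EIPA was compared over libraries, 2 against 2, with edgeR's quasi-likelihood test on summed UMIs and Benjamini-Hochberg adjustment over all genes tested. The edgeR tests cover the genes left by a filter on low counts. Shares for DESeq2, the alternative fit, are of all genes with a UMI, some of which got no adjusted p. The shares of the 2 methods therefore have unlike denominators. Over all cells Slc9a3r1 was 73.8 and 73.7 CPM in -EIPA and 110 and 121 in +EIPA. Both +EIPA libraries were higher, by a log2 fold change of 0.73 (SE 0.09), but the adjusted p of 0.239 did not pass 0.05. None of the 7 members tested passed (0 called), against 0% of 15890 genes, of which 1601 were at an unadjusted p under 0.05. Blocking on the experiment, which pairs same-numbered libraries, Slc9a3r1 had an adjusted p of 0.0198 and 5.28% of genes were called. With DESeq2 it had 5.78e-07 and 2.56% were called. Slc9a2 was 7.37 and 4.41 CPM in -EIPA and 9.29 and 7.83 in +EIPA, and Slc9a3 4.71 and 1.98 against 6.41 and 4.76. The low value of both was -EIPA replicate 2, in which enterocyte-like cells were 10.6% of the cells against 18.6% to 20.2% in the other WT libraries. The enterocyte markers summed over all cells stood at 9534 and 5364 CPM in -EIPA and 17003 and 14932 in +EIPA, and their part was not tested. A sum over all cells cannot tell a change in the share of a class from a change in level within it.

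Within enterocyte-like cells Slc9a3r1 was 157 ± 2.60 CPM in -EIPA and 264 ± 25.5 CPM in +EIPA (SD, n = 2 libraries each), a ratio of 1.59 in experiment 1 and 1.78 in experiment 2. The groups did not overlap, but the share of all genes without overlap was not counted, and the test as planned was not passed. Slc9a3r1 differed by 0.92 on the log2 scale (SE 0.15, edgeR adjusted p = 0.0666), and 0 of 6 members were called against 0.12% of 12521 genes. Both other fits called it, at an adjusted p of 2.21e-06 when blocked on the experiment (15.7% of genes called) and 3.05e-06 with DESeq2 (2.76% called). Without -EIPA replicate 1 the adjusted p was 0.0423, without +EIPA replicate 1 it was 0.0272, and without -EIPA replicate 2 or +EIPA replicate 2 it was 0.108 or 0.210. Scaling by library size alone put the median of all genes at -0.19 on the log2 scale, against -0.02 as planned, and gave Slc9a3r1 a change of 0.75. Cluster 5 held 22.9% and 25.7% of the class in -EIPA and 31.3% and 40.3% in +EIPA. For Slc9a3r1 both +EIPA libraries were above both -EIPA libraries in 13 of the 21 clusters of any class with 4 WT libraries. The reverse held in 0, and the share over all genes was not counted. All 5 enterocyte-like clusters were among these 13. The largest step was in cluster 10, from 147 and 131 CPM to 365 and 479, and without that cluster the class gave 0.78 on the log2 scale (adjusted p = 0.135). The enterocyte marker list moved with the gene. Its summed level in enterocyte-like cells was 46942 and 33890 CPM in -EIPA and 66042 and 63652 in +EIPA, and its part in the result was not tested.

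**Figure D3:**
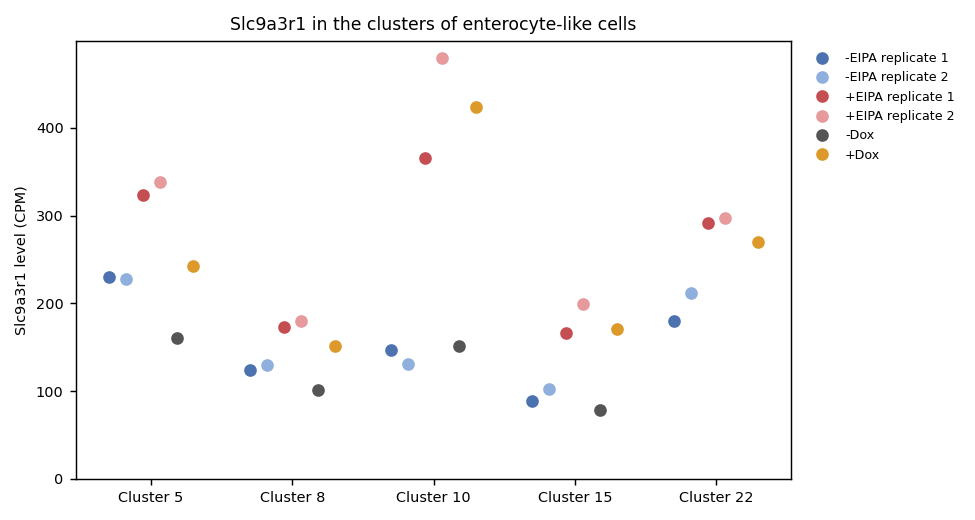
Slc9a3r1 level in CPM in each of the 5 enterocyte-like clusters, with 1 point per library. Both +EIPA points lie above both -EIPA points in each cluster, and +Dox lies above -Dox in the 4 clusters with both libraries. Over clusters of all classes, the EIPA groups were ordered in this way in 13 of 21.

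The apical exchangers did not pass the test in enterocyte-like cells. For Slc9a2 the difference was 0.61 (log2, SE 0.27, adjusted p = 0.295), with both +EIPA libraries just above the higher -EIPA library. For Slc9a3 it was 0.48 (SE 0.28, adjusted p = 0.408), and its groups overlapped. Blocked on the experiment, their adjusted p values were 0.00283 and 0.0133, and without -EIPA replicate 1 they were 0.0158 and 0.0219, with log2 fold changes of 1.14 and 1.03. Without -EIPA replicate 2, the lowest library for both genes, the log2 fold changes were 0.23 for Slc9a2 (adjusted p = 0.496) and 0.0872 for Slc9a3 (adjusted p = 0.810), so the size of both rested on which control library was kept. The ratio in experiment 1 was 1.11 for Slc9a2 and 1.03 for Slc9a3, against 1.85 and 1.66 in experiment 2. Slc9a8 was 11.3 and 10.9 CPM in -EIPA and 10.0 and 8.76 in +EIPA. Both +EIPA libraries were thus lower, an order whose share over all genes was not counted. Its log2 fold change under the planned scaling, which CPM values lack, was -0.08 (SE 0.14, edgeR adjusted p = 0.806). Slc9a5 and Slc9a3r2 rested on under 1 CPM.

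In the other classes the log2 fold changes of Slc9a3r1 lay between 0.15 and 0.45. In ISC-like cells it was 46.3 and 52.9 CPM in -EIPA and 52.7 and 58.6 in +EIPA, overlapping groups that differed by 0.25 (SE 0.11, adjusted p = 0.489, or 0.00278 when blocked). In ISC-like cells 0 of 6 members were called, against 0.0399% of genes, and with the block 1 of 6, against 20% of genes. In Goblet/Paneth-like cells Slc9a3r1 was 50.0 and 57.3 CPM against 67.3 and 70.0, a difference of 0.45 (SE 0.13, adjusted p = 0.442, or 9.44e-05 when blocked). These groups did not overlap, and the share of all genes without overlap was not counted. In the same cells the enterocyte markers summed to 2276 and 1906 CPM in -EIPA and 4540 and 3749 in +EIPA, and the Paneth markers to 66559 and 83560 against 79614 and 135160, and their part was not tested. There 0 of 6 members were called, against 0.159% of genes, and with the block 1 of 6, against 5.84% of genes. In proliferating cells the change was 0.15 (SE 0.11), with 0 of 6 members and 0% of genes called, and in EEC-like cells 0.23 (SE 0.14), with 0 of 6 members and 0.106% of genes called. At an unadjusted p under 0.05 stood 1 member in Goblet/Paneth-like cells (835 of 12601 genes), 1 in enterocyte-like cells (2278 of 12521) and 0 in ISC-like (1349 of 12521), proliferating (652 of 13269) and EEC-like cells (358 of 12314). DESeq2 called 0 members in the ISC-like, Goblet/Paneth-like, proliferating and EEC-like classes, where it called 0.539%, 0.568%, 0.456% and 0.193% of genes.

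**Figure D4:**
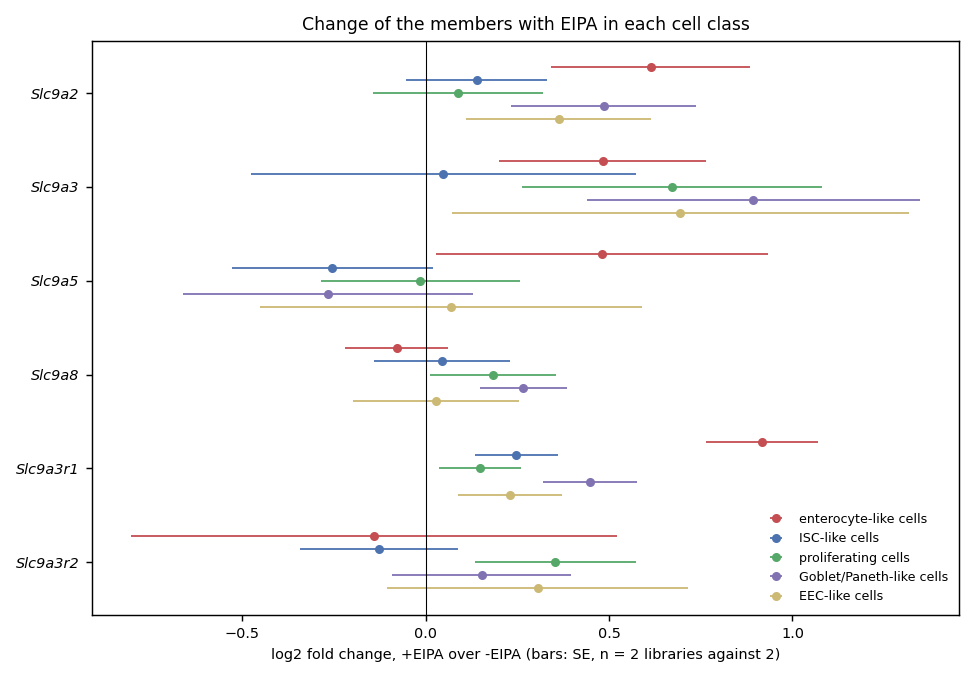
Log2 fold change of each tested member, +EIPA over -EIPA, by cell class (edgeR, points) with its SE (bars, n = 2 libraries against 2). Slc9a3r1 lies at 0.92 in enterocyte-like cells and at 0.25 in ISC-like cells.

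The EIPA change of Slc9a3r1 was larger in enterocyte-like than in ISC-like cells. The difference of the log2 fold changes was 0.69 (SE 0.11, adjusted p = 0.00433, edgeR interaction with library as a block, higher in 2 of 2 replicate pairs). The test called 1 of 6 members, a count too small to set them apart, beside 9.84% of 13190 genes. Of those genes 760 were called higher and 538 lower, and 506 and 1130 with library size alone, under which Slc9a3r1 stood at 0.58 (adjusted p = 0.00969). The adjusted p was 0.0699 with stricter limits on cells and 0.564 with classes rebuilt from 20 principal components. In that rebuilding the ISC-like class held 895 and 3316 cells in -EIPA and 283 and 131 in +EIPA. The ISC-like class of the planned test also differed in make-up between the groups. Cluster 2 held 90.9% and 98.2% of it in -EIPA and 26.7% and 11.2% in +EIPA, where cluster 9 held 73.2% and 88.2%, and the sum of the ISC markers in the class was 7275 and 8788 CPM in -EIPA against 4970 and 4851 in +EIPA. Differences for Slc9a2 (0.59, adjusted p = 0.126) and Slc9a3 (0.47, adjusted p = 0.382) did not pass.

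Of the 25 other genes listed for the pathway, 20 could be tested over all cells and 17 in enterocyte-like cells, and edgeR called 0 in both. The members and this list were chosen with earlier results of these data known. Their shares and medians beside those of all genes are therefore a description and no test of the list. Over all cells 7 were at an unadjusted p under 0.05, DESeq2 called 6 of 25 beside 2.56% of all genes, and the block called 7 of 20 beside 5.28%. In enterocyte-like cells 11 were higher and 6 lower, 7 were at an unadjusted p under 0.05, and their median log2 fold change was 0.29, against -0.02 over all genes and 0.48 over the 6 members. DESeq2 called 3 (Chp2, Ezr and Slc26a6) beside 2.76% of all genes. The block called 6 higher (Chp2, Ezr, Pdzk1, Slc26a6, Prkg2 and Sgk1) and 1 lower (Cftr) beside 15.7% of all genes. Pdzk1, another PDZ scaffold of the brush border, was 6.81 and 2.19 CPM in -EIPA and 20.5 and 17.9 in +EIPA, the largest fold of the genes tested (log2 2.26, SE 0.43, adjusted p = 0.0825). Slc26a6, an apical anion exchanger, was 87.9 and 66.3 CPM against 137 and 128 (0.94, SE 0.18, adjusted p = 0.0797). Ezr, which encodes ezrin, was 178 and 148 CPM against 221 and 202, and Chp2, a calcineurin-like partner of exchangers, 149 and 134 against 185 and 180. Cftr, the chloride channel bound by NHERF scaffolds, was the other way, at 42.0 and 40.02 CPM against 28.8 and 25.1. The groups of these 5 genes, all picked from those that the block called, did not overlap. The share of all genes without overlap was not counted, so this adds no support. Blocked on the experiment, the adjusted p was 7.17e-13 for Pdzk1, 5.7e-07 for Slc26a6, 0.00364 for Ezr, 0.00423 for Chp2 and 0.0169 for Cftr. The difference between enterocyte-like and ISC-like cells passed the test for 3 of 18 genes, beside 9.84% of all genes, namely Chp1 (0.60, adjusted p = 0.0223), Prkg2 (0.76, adjusted p = 0.0213) and Sgk1 (1.45, adjusted p = 0.00668), each in the direction of a higher EIPA change in enterocyte-like cells. A fall in ISC-like cells gives the same direction as a rise in enterocyte-like cells, and the test does not tell them apart. Chp1 encodes a partner protein of exchangers, and Prkg2 and Sgk1 encode kinases that act on them.

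**Figure D5:**
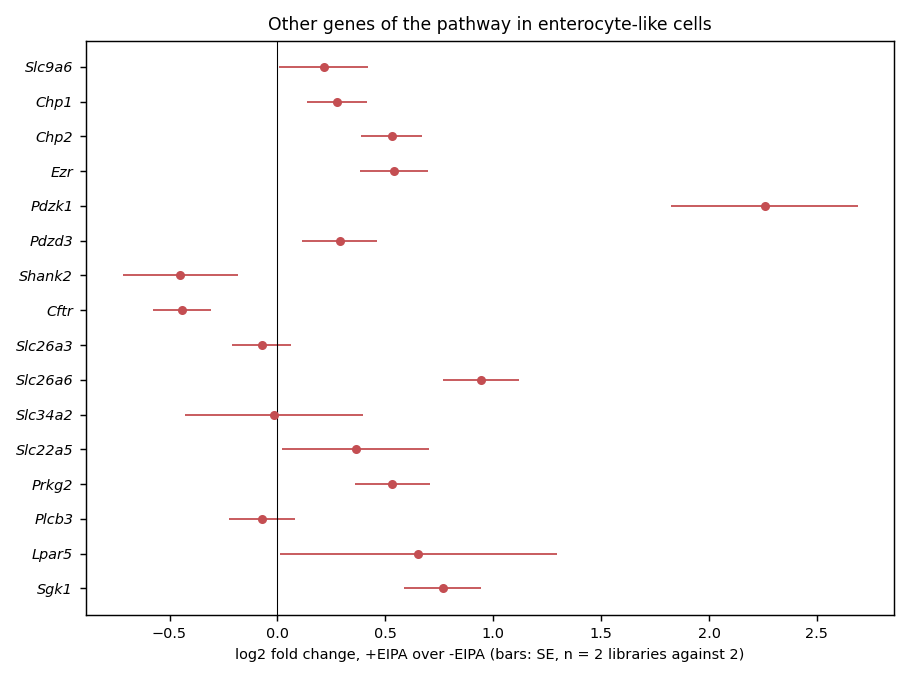
Log2 fold change, +EIPA over -EIPA, of 16 of the 17 other pathway genes tested in enterocyte-like cells (edgeR, points) with SE as bars (n = 2 libraries against 2). Pdzk1 and Slc26a6 lie farthest to the right and Shank2 and Cftr to the left, and no gene shown passed the adjusted threshold.

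The CRISPR-Cas9 organoids gave 1 library per condition, so +Dox and -Dox are set side by side with no replicate check, and intervals cover counting error only. The +Dox cells were also sorted for GFP and the -Dox cells were not, so sorting and Dox cannot be told apart. Over all cells Slc9a3r1 was 62.7 CPM in -Dox and 113 in +Dox, a ratio of 1.80 (95% interval 1.76 to 1.83). Slc9a3 was 6.12 and 13.8 CPM, a ratio of 2.26 (2.12 to 2.40), and Slc9a2 7.72 and 11.1, a ratio of 1.44 (1.35 to 1.53). On the log2 scale these were 0.84, 1.17 and 0.52. The 5th to 95th percentile was -0.46 to 0.56 over 7617 genes with a mean of at least 10 CPM over both libraries. Slc9a2 lay within that range. Neither Slc9a3 nor Slc9a2 reached that mean, so both are outside the set of genes compared. Slc9a3r2, the other scaffold, was 0.782 and 1.12 CPM, a ratio of 1.43 (1.18 to 1.73) from 182 and 264 UMIs, and Slc9a8 (1.04) and Slc9a5 (1.05) were near 1. Enterocyte-like cells were 19.8% of the -Dox and 27.7% of the +Dox cells, and the enterocyte markers over all cells were at 10478 and 21845 CPM, a part that was not tested.

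Within enterocyte-like cells Slc9a3r1 was 124 and 224 CPM (ratio 1.80, 1.75 to 1.86), Slc9a3 24.7 and 41.6 (1.69, 1.57 to 1.82) and Slc9a2 14.6 and 22.4 (1.54, 1.39 to 1.70). The make-up of the class differed between these libraries, with 31.7% of it in cluster 5, 29.3% in cluster 8 and 28.2% in cluster 10 in -Dox, and 58.5%, 18.1% and 13.1% in +Dox. By cluster, Slc9a2 was 9.88 and 9.70 CPM in cluster 8 but 32.5 and 78.8 in cluster 10, while Slc9a3 was higher in +Dox in each of clusters 5, 8, 10 and 15. In the class as a whole all 3 were above 1 beyond counting error, and on the log2 scale, at 0.85, 0.75 and 0.62, above the 95th percentile of 0.58 over 7024 genes. The enterocyte marker sum was 44843 CPM in -Dox and 66228 in +Dox, and its part was not tested. In ISC-like cells, held mostly by cluster 2 in -Dox (97.6%) and by cluster 12 in +Dox (92.6%), Slc9a3r1 was 42.7 and 52.5 CPM (ratio 1.23, 1.14 to 1.32) and Slc9a2 4.15 and 4.06. The Slc9a3r1 ratio, 0.30 on the log2 scale, lay within the 5th to 95th percentile of -0.44 to 0.34 over 7390 genes. Slc9a3 was 1.02 and 2.01 CPM there, while the enterocyte markers in those cells were at 1381 and 2998 CPM. In Goblet/Paneth-like cells Slc9a3r1 was 49.1 and 64.6 CPM (ratio 1.32, 1.22 to 1.41) and Slc9a3 2.34 and 4.45 (1.90, 1.39 to 2.66). The parts of this class differed. In its Goblet-led cells Slc9a3 was 2.11 and 5.98 CPM (ratio 2.83, 1.87 to 4.43) and Slc9a3r1 had a ratio of 1.45 (1.33 to 1.59), while in its Paneth-led cells Slc9a3 was 2.69 and 2.51 CPM (0.935, 0.551 to 1.62) and Slc9a3r1 had a ratio of 1.14 (1.008 to 1.28). The enterocyte markers in the whole class were at 3371 CPM in -Dox and 6143 in +Dox. The Paneth markers there were at 61395 and 120108 CPM and the Goblet markers at 34886 and 48281.5. The part of these markers was not tested. The ratio of Slc9a5 in EEC-like cells was 0.979 (0.550 to 1.81). Pdzk1 in enterocyte-like cells was 7.14 CPM in -Dox and 36.5 in +Dox, a ratio of 5.11 (4.52 to 5.80).

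Over 36 points (6 classes in 6 libraries) and 10291 genes, the genes whose level ran most like a member's were named as a description. For Slc9a3 these were Tkfc (Pearson r = 0.9796), Gpd1 and Cd36, for Slc9a3r1 Edf1 (0.971), Agpat2 and Dhrs1, and for Slc9a2 Npc1l1 (0.952), Gng12 and Pdzd3. Slc9a8 had no close match, with Trappc12 at 0.827. Points of 1 library share its depth and those of 1 class its markers, so these values carry no p.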

How the data were processed

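The 6 libraries were made with 10x 3′ chemistry. The authors aligned reads to mouse mm10 (GRCm38) with Cell Ranger 6.1.2 and deposited raw UMI counts per gene and barcode, without normalization. A barcode was kept as a cell from 1000 detected genes upward when mitochondrial UMIs were below 20% (12606, 18211, 13194, 14262, 17598 and 12083 cells in -EIPA replicates 1 and 2, +EIPA replicates 1 and 2, -Dox and +Dox, at medians of 11947.5, 11858, 11477.5, 14467, 11952 and 17020 UMIs). The members and the pathway list were chosen with earlier results of these data known, and both were left out of the 3000 variable genes used to cluster. Pearson residuals (theta 100), 45 principal components, a graph of 20 neighbours and Leiden clustering (resolution 0.8, igraph 0.11.9) were computed with numpy 2.4.6, pandas 2.3.3 and scipy 1.17.1 (Python 3.11.15). Harmony correction, an alternative, used scikit-learn 1.9.0. Clusters were named only from marker lists. Figures were drawn with matplotlib 3.10.9.

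Counts were summed per library and class, and the EIPA groups were tested with edgeR 4.0.16 under R 4.3.3. TMM scaling, the filterByExpr filter and the quasi-likelihood test were used, p values were adjusted by Benjamini-Hochberg across the genes tested, and the threshold was 0.05, with DESeq2 1.42.0 as an alternative. The study's own test treats cells as replicates and was not used. SE values were derived from the F statistic. The paper's source data pair same-numbered libraries as experiments 1 and 2, and their deviations from group means correlated at 0.462 to 0.731 over genes in the 6 comparisons. The planned test had no block, and the block leaves 1 residual degree of freedom, so its small p values rest on a spread shared across genes. The study describes 2 separate preparations but not separate animals, so p values measure the spread between these libraries, which may be technical. On simulated counts with 200 changed genes the edgeR test recovered 88% of 3-fold and 7% of 1.5-fold changes in enterocyte-like cells (12521 genes), and the interaction 89% and 39% (13190 genes). Dox ratios have exact 95% intervals from counts. Shares of cells with a UMI were also computed after thinning to 2000 UMIs per cell. Doublets were not removed in the main analysis. They were scored with Scrublet (scanpy 1.11.5), whose automatic threshold marked 0.0476% and 0% of cells in -EIPA replicate 1 and +EIPA replicate 1. An alternative chosen after seeing this removed the 10% of cells with the highest scores. Named genes were all 8 members, the 25 listed pathway genes, and the 3 genes most like each member of at least 10 CPM in a class. The gene targeted in the CRISPR-Cas9 line is not reported here. Promoters are from RefSeq, with 7 of 8 members matched.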

Additional observations from a re-analysis of the deposited data

Results flagged for a closer look

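The EIPA change of Slc9a3r1 differed between cell classes. It was larger in enterocyte-like than in ISC-like cells by 0.687 on the log2 scale (edgeR interaction over 4 WT libraries, adjusted p = 0.00433). The same test called 9.84% of 13190 genes. The level went from 155 and 159 CPM to 246 and 282 CPM in enterocyte-like cells and from 46.3 and 52.9 CPM to 52.7 and 58.6 CPM in ISC-like cells. Without the low-UMI cluster 10 the difference was 0.54 (adjusted p = 0.0463), and with any 1 library left out it ran from 0.58 to 0.78, with an adjusted p of at most 0.0309. It was no longer called with strict limits on cells (0.59, adjusted p = 0.0699) or with 20 principal components (0.64, adjusted p = 0.564). The ISC-like class lay mostly in cluster 2 in -EIPA (90.9% and 98.2%) and in cluster 9 in +EIPA (73.2% and 88.2%). With 20 principal components it held 895 and 3316 cells in -EIPA and 283 and 131 in +EIPA.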

How the results depend on the processing

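Of 537 values of 43 member changes under alternatives, 478 kept their direction and their side of the threshold, 18 newly passed it, 2 no longer passed and 39 changed sign, 0 of these being called. The number of members called with EIPA was 1 over all cells without a filter on low counts (198 of 22851 genes called), with DESeq2 (586 of 22851), and under the replicate block (839 of 15890). In enterocyte-like cells it was 2 without the filter (1235 of 18879 genes), 1 with DESeq2 (522 of 18879), 3 with the replicate block (1962 of 12521), 1 without the cells of highest Scrublet scores (364 of 12097), and 0 to 3 with 1 library left out (3 without -EIPA replicate 1, with 665 of 12929 genes, and 1 without +EIPA replicate 1, with 330 of 12772). It was 1 in ISC-like cells with the block (2504 of 12521 genes), and 1 in Goblet/Paneth-like cells without the filter (382 of 18836) and with the block (736 of 12601), and the block changed no other call. For the difference between enterocyte-like and ISC-like cells it was 0 with strict limits on cells (at least 2000 genes, under 10% mitochondrial UMIs, 118 of 12928 genes) and 0 with 20 principal components (12 of 12635), and 1 to 2 with 1 library left out (Slc9a2, 0.94 with adjusted p = 0.000527, joined without -EIPA replicate 1, with 4111 of 13589 genes). The cause was not tested. Over all genes the calls ranged from 0 to 839 over all cells, 0 to 1962 in enterocyte-like (15 as planned, 14 with library size alone of which 9 were higher, against 12 of 15), 0 to 2504 in ISC-like (5 as planned), 0 to 1113 in proliferating (0 as planned), 1 to 736 in Goblet/Paneth-like (20 as planned, all higher, and 65 with library size alone of which 57 were higher), 0 to 183 in EEC-like cells (13 as planned) and 12 to 4111 for the difference (1298 as planned).

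Signs changed as follows on the log2 scale, with no call at either sign. With strict limits Slc9a9 over all cells was 0.12 and Slc9a8 in EEC-like cells -0.0054. With library size alone, Slc9a3 and Slc9a8 in ISC-like cells were -0.0369 and -0.0376, Slc9a8 in EEC-like cells -0.0122 and the class difference of Slc9a3r2 -0.0893. With Harmony correction Slc9a2 in ISC-like cells was -0.41. With 20 principal components Slc9a5 was 0.43 in ISC-like and 0.0481 in proliferating cells, and the class differences of Slc9a3 and Slc9a3r2 were -0.996 and -0.37. With high Scrublet scores removed Slc9a5 in proliferating cells was 0.0895, and with the block Slc9a8 in EEC-like cells was -0.0258. With 1 library left out, the ranges were -0.0423 to 0.23 for Slc9a8, -0.40 to 0.35 for Slc9a9 and -0.0518 to 0.50 for Slc9a3r2 over all cells, -0.97 to 0.78 for Slc9a3r2 in enterocyte-like cells, -0.55 to 0.81 for Slc9a3 and -0.17 to 0.24 for Slc9a8 in ISC-like cells, and -0.16 to 0.39 for Slc9a2, -0.205 to 0.16 for Slc9a5 and -0.0105 to 0.41 for Slc9a8 in proliferating cells. They were -0.65 to 0.0075 for Slc9a5 and -0.13 to 0.38 for Slc9a3r2 in Goblet/Paneth-like cells, -0.15 to 1.52 for Slc9a3, -0.26 to 0.33 for Slc9a5 and -0.29 to 0.29 for Slc9a8 in EEC-like cells, and -0.22 to 0.0287 for Slc9a8 and -0.90 to 0.98 for Slc9a3r2 in the class difference. Slc9a7 and Slc9a9 did not pass the filter on low counts in the 5 classes tested, and tuft-like cells were not tested. Intervals and floors cover counting error only.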
